A study of Mus musculus with 6 samples.

Results

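Integrins are adhesion receptors made of 1 α and 1 β subunit, and T cells use them to stop on vessel walls, to enter lymph nodes and tissues and to hold onto antigen-presenting cells. The transcripts of 10 integrin subunits of T cells were examined in splenic CD4+ T cells of mice with or without the *Ikzf3* N159S allele. The subunits were the α subunits *Itga4*, *Itga6*, *Itgae*, *Itgal* and *Itgav* and the β subunits *Itgb1*, *Itgb2*, *Itgb3*, *Itgb5* and *Itgb7*. They were chosen by gene symbol among the 25239 genes listed for each library, and all 10 were listed. *Ikzf3* encodes Aiolos, a zinc finger transcription factor of the Ikaros family, and N159S is a missense change in it that was introduced by genome editing. The libraries came from sorted TCRβ+CD4+CD44-CD127+ splenic T cells of C57BL/6 mice, a gate chosen to hold naïve cells without the use of CD62L.

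The comparison covered 3 genotypes, each with 2 libraries. *Ikzf3+/+* (wild-type) mice carried no mutant allele, *Ikzf3+/N159S* (heterozygous) mice carried 1 and *Ikzf3N159S/N159S* (homozygous) mice carried 2, and the allele was present in every cell of the animal. Each library is counted as a mouse in the methods, and the labels give no age. In such bulk RNA, fewer cells that express a gene and less of its RNA per cell cannot be told apart.

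The partner rules of the family set the order of the results. *Itgal* and *Itgb2* encode the chains of LFA-1, which binds ICAMs. *Itga4* pairs with *Itgb1* in VLA-4, a receptor for VCAM-1 and fibronectin, or with *Itgb7* in the gut-homing receptor for MAdCAM-1. *Itga6* encodes a chain of laminin receptors that in T cells pairs with *Itgb1*, and *Itgae* encodes CD103, which pairs with *Itgb7* and binds E-cadherin. *Itgav* pairs with several β subunits, *Itgb1*, *Itgb3* and *Itgb5* among them, to bind RGD-bearing matrix proteins and latent TGF-β.

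Each library held 11696461 to 17317260 reads on genes, and 14803 to 18147 genes had at least 1 read. Counts were scaled with TMM factors from edgeR, and a normalized count is a count brought to the mean library size. Of the 25239 genes, 12117 passed a filter on low counts and were tested in one fit of the 6 libraries with edgeR's quasi-likelihood test. FDR denotes its Benjamini-Hochberg adjusted p over those 12117 genes, genes with an FDR under 0.05 were called, and values after ± are SDs with n = 2. For 1 gene, 2 libraries against 2 allow an exact two-sided permutation p no smaller than 0.333.

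Both *Ikzf3+/N159S* libraries stood apart in sex-linked transcripts. *Xist*, the RNA of the inactive X chromosome, was at 731 and 824 CPM, which are counts scaled to library size, in them and at 0.773 to 1.98 CPM in the other 4 libraries. The Y-linked *Ddx3y* was at 1.06 and 1.09 CPM against 264 to 313 CPM. In every comparison with *Ikzf3+/N159S*, the genotype and this difference between the libraries cannot be told apart. T cell identity transcripts (*Cd3d*, *Cd3e*, *Cd3g*, *Cd4*, *Lck*, *Cd2*) summed to 2864 to 3299 CPM in the 6 libraries. The mutated gene itself had normalized counts of 2351 and 2312 in wild-type, 2511 and 2278 in heterozygous and 2950.2 and 3032 in homozygous cells (FDR = 0.0490 for *Ikzf3N159S/N159S* against *Ikzf3+/+*, edgeR's quasi-likelihood test).

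The subunits covered a wide range of levels. In RPKM, which are reads per kilobase of exon scaled to library size, *Itgb7* was the most abundant in *Ikzf3+/+* T cells with 345 ± 15.4, followed by *Itgb2* with 208 ± 3.43 and *Itgal* with 98.0 ± 6.94. *Itga4* with 69.5 ± 6.11 and *Itga6* with 64.4 ± 5.76 came next, and the libraries of these neighbours overlapped. *Itgb3* had 39.5 ± 1.99 RPKM and *Itgb1*, the β chain that T cell α4 and α6 share, had 14.5 ± 0.609. Far below lay *Itgav* with 4.45 ± 0.674, *Itgae* with 0.722 ± 0.0424 and *Itgb5* with 0.0794 ± 0.112 RPKM. Apart from *Itga4* and *Itga6*, no neighbours in this order overlapped in *Ikzf3+/+*. The order was the same in both mutant genotypes, with *Itga6* at 42.7 ± 3.74 RPKM in *Ikzf3+/N159S* and 38.7 ± 2.17 in *Ikzf3N159S/N159S*, where its libraries overlapped with those of *Itgb3* (39.6 ± 5.87 and 36.6 ± 1.59) and not with those of *Itga4*.

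Of the 10 subunits, *Itga6* was the one that passed the test in *Ikzf3N159S/N159S* T cells, and *Itga6* and *Itgae* passed it in *Ikzf3+/N159S* T cells. *Itga6* was lower in both mutant genotypes, and *Itgae* was higher in *Ikzf3+/N159S*. Over all genes tested, 5.26% were called in *Ikzf3N159S/N159S* against *Ikzf3+/+* and 1.75% in *Ikzf3+/N159S* against *Ikzf3+/+*, so 1 of 10 and 2 of 10 are counts too small to set the family apart from that background. The median log2 fold change of the 10 subunits was 0.014 in *Ikzf3N159S/N159S* and 0.00074 in *Ikzf3+/N159S*, beside 0.00038 and 0.011 for all genes tested. In each comparison 5 subunits were above *Ikzf3+/+* and 5 below. Without adjustment, 4 subunits in *Ikzf3N159S/N159S* and 5 in *Ikzf3+/N159S* had a p under 0.05, beside 18.3% and 16.3% of all genes tested.

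**Figure D1:**
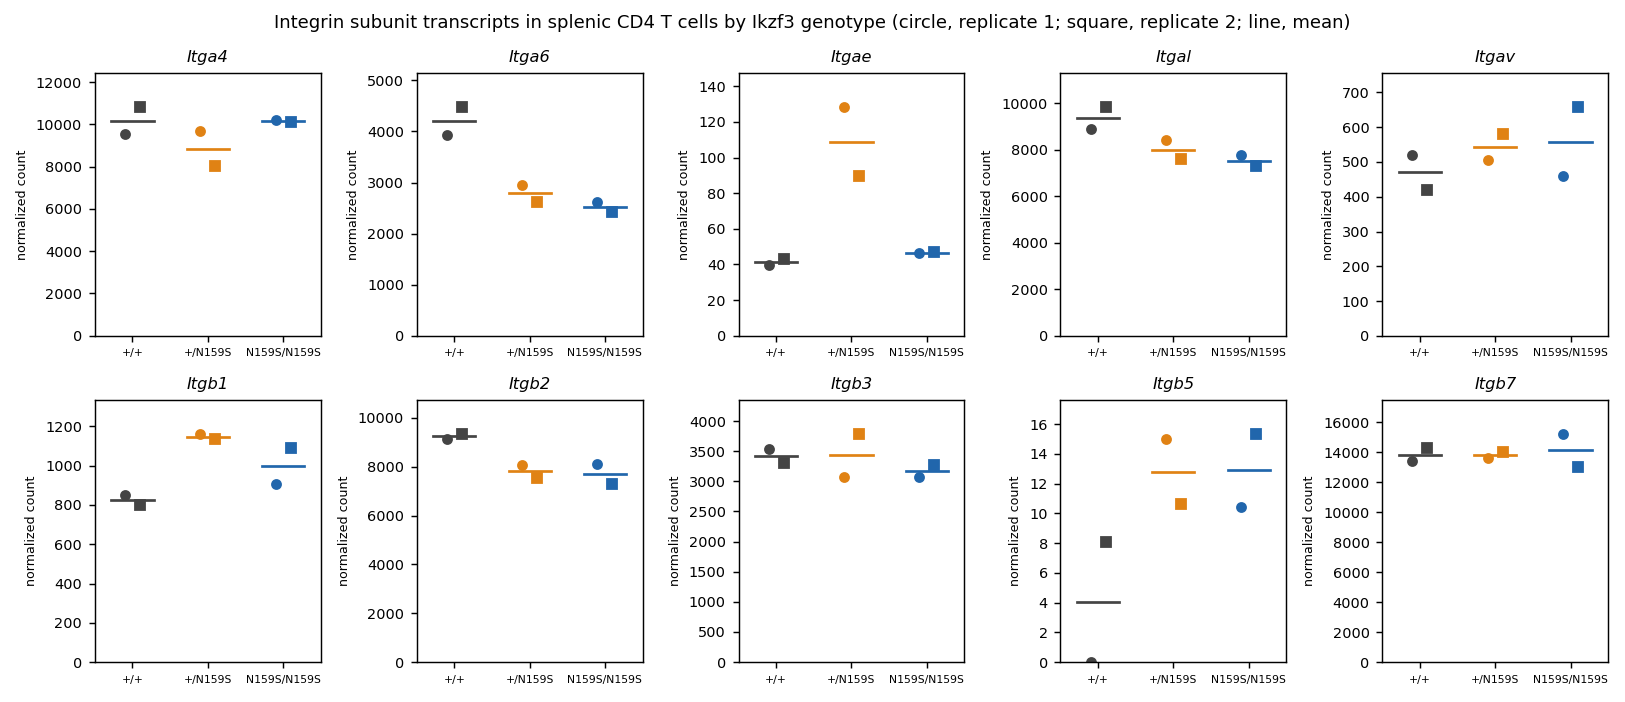
Normalized counts (vertical axes, from 0) of the 10 integrin subunits in the 6 libraries, by *Ikzf3* genotype. Circles are replicate 1, squares are replicate 2 and lines are means. *Itga6* lies at 3938 and 4469 in *Ikzf3+/+* and between 2424 and 2960.5 in the 4 mutant libraries, and *Itgae* is raised in the *Ikzf3+/N159S* libraries.

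*Itga6* (GRCm38 chromosome 2, 71745616 to 71858416, plus strand) fell in both mutant genotypes. Its normalized counts were 3938 and 4469 in wild-type, 2960.5 and 2615 in heterozygous and 2624 and 2424 in homozygous cells. No mutant library reached the lower *Ikzf3+/+* value. The log2 fold change was −0.74 (SE 0.11, 95% interval −0.97 to −0.50, FDR = 0.00233) in *Ikzf3N159S/N159S*, which is a level 0.600 times that of *Ikzf3+/+*. In *Ikzf3+/N159S* it was −0.59 (SE 0.11, 95% interval −0.82 to −0.36, FDR = 0.0199). One mutant allele thus came with 0.805 of the log2 difference seen with 2. The mutant genotypes did not pass the test against each other (log2 fold change −0.14, 95% interval −0.38 to 0.088, FDR = 0.654), and *Ikzf3+/N159S* did not pass it against the midpoint of the other genotypes (−0.22, FDR = 0.381). The fall in *Ikzf3N159S/N159S* was called without any one of the 6 libraries, with log2 fold changes of −0.82 to −0.64. The fall in *Ikzf3+/N159S* was lost without *Ikzf3+/+* replicate 2 (−0.50, FDR = 0.176) and without *Ikzf3+/N159S* replicate 2 (−0.50, FDR = 0.0936). No other listed gene overlapped *Itga6* in the annotation.

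*Itgae* (chromosome 11, 73090583 to 73147446, plus strand) was a low-abundance transcript that was higher in *Ikzf3+/N159S* T cells. It had 31 and 43 reads in wild-type, 145 and 93 in heterozygous and 53 and 43 in homozygous cells. As normalized counts these were 39.9 and 43.3, 128 and 89.7, and 46.2 and 47.2. Both *Ikzf3+/N159S* libraries stood above the other 4, and their spread (109 ± 27.2) was wider than that of *Ikzf3+/+* (41.6 ± 2.44) and *Ikzf3N159S/N159S* (46.7 ± 0.70). Against *Ikzf3+/+* the log2 fold change was 1.39 (SE 0.28, 95% interval 0.78 to 1.99, FDR = 0.0299), or 2.62-fold, in heterozygous cells. In *Ikzf3N159S/N159S* it was 0.16 (95% interval −0.56 to 0.87, FDR = 0.857), an interval that does not exclude a change in either direction.

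*Itgae* was also the subunit that differed between the mutant genotypes and that departed in *Ikzf3+/N159S* from the midpoint of the others. Both comparisons use the *Ikzf3+/N159S* libraries, which also stood apart in *Xist* and *Ddx3y*. Allele number and that difference therefore cannot be told apart. Against *Ikzf3+/N159S*, *Ikzf3N159S/N159S* was lower (log2 fold change −1.23, SE 0.26, FDR = 0.0378), in a comparison that called 1.66% of all genes. *Ikzf3+/N159S* exceeded the midpoint of the others by 1.31 in log2 units (SE 0.22, FDR = 0.0188), a test that called 1.03% of all genes. These calls rested on few reads. The rise in *Ikzf3+/N159S* was lost without *Ikzf3+/+* replicate 1 (FDR = 0.142), *Ikzf3+/+* replicate 2 (FDR = 0.197) or *Ikzf3+/N159S* replicate 1 (log2 fold change 1.10, FDR = 0.129). The difference between the mutant genotypes was called in 7 of 11 alternative analyses, and with 1 of the 6 libraries left out in turn it was called in 1 case, that without *Ikzf3+/N159S* replicate 2. Blocking on replicate number gave it an FDR of 0.0508. The departure from the midpoint was lost without *Ikzf3+/+* replicate 2 (FDR = 0.0520) and without *Ikzf3+/N159S* replicate 1 (FDR = 0.152). *Haspin* lies inside *Itgae* on the opposite strand. The library kit does not mark strand, so strand could not separate their reads, and the strand setting of the counting is not given in the sources used here. *Haspin* had 74 and 62 reads in wild-type, 89 and 76 in heterozygous and 133 and 99 in homozygous cells. Its log2 fold change was −0.023 (FDR = 0.976) in *Ikzf3+/N159S*.

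**Figure D2:**
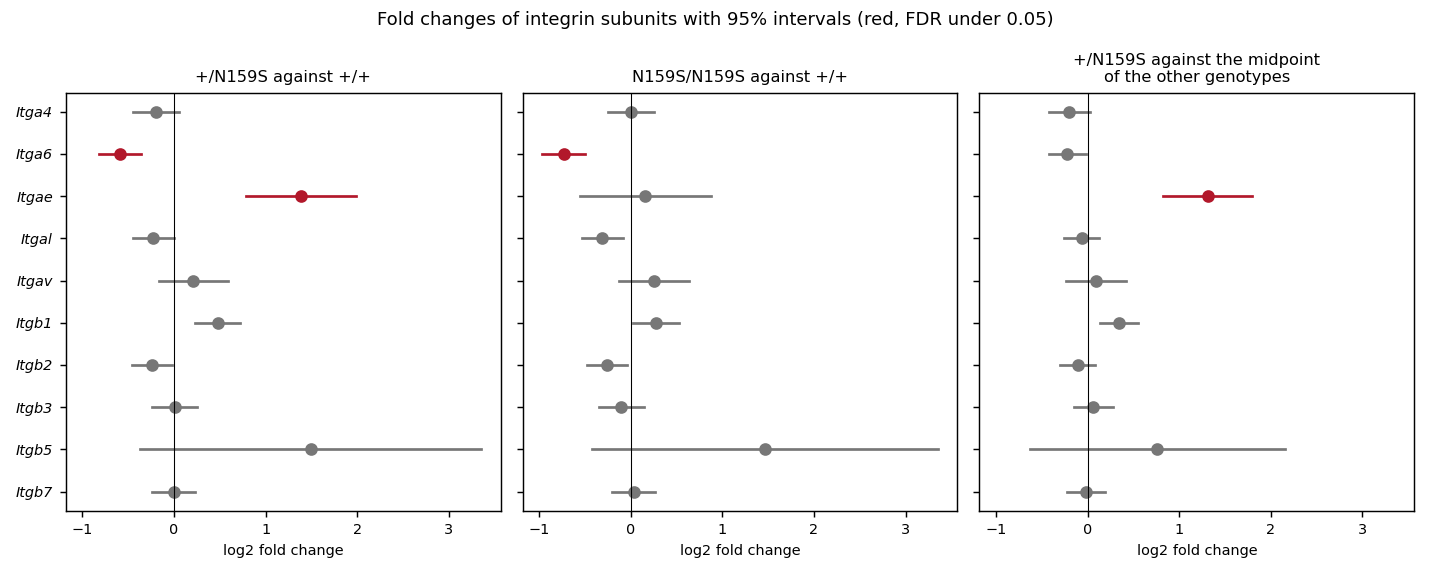
Log2 fold changes (horizontal axes, the same in each panel) of the 10 subunits with 95% intervals, for *Ikzf3+/N159S* and *Ikzf3N159S/N159S* against *Ikzf3+/+* and for *Ikzf3+/N159S* against the midpoint of the other genotypes. Red marks an FDR under 0.05, which *Itga6* reached in both comparisons with *Ikzf3+/+*, and *Itgae* in *Ikzf3+/N159S* (1.39) and against the midpoint (1.31).

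Among the marker sums of other cell types, that of regulatory T cells was highest in heterozygous cells with replicate 1 above replicate 2, as *Itgae* was. The CD8 sum did not share this pattern. The B cell and memory sums were also highest in heterozygous cells, but with replicate 2 above replicate 1. In the memory list, *Cd44* (normalized counts of 360 and 652 in heterozygous cells) and *Cxcr6* (26.5 and 35.7) had this order of replicates. The other memory markers had replicate 1 above replicate 2, as *Itgae* did. CD103 is carried by many regulatory T cells and CD8+ T cells, and the marker lists were summed as CPM without any integrin gene. Regulatory T cell markers (*Foxp3*, *Il2ra*, *Ikzf2*, *Ctla4*) summed to 49.3 and 59.4 in wild-type, 102 and 76.8 in heterozygous and 50.7 and 47.1 in homozygous cells. As with *Itgae*, the *Ikzf3+/N159S* libraries were highest and replicate 1 was the higher of them. Of these 4 markers, *Ikzf2* was called higher in *Ikzf3+/N159S* (log2 fold change 0.83, FDR = 0.0230), and *Foxp3* had normalized counts of 103 and 168, 451 and 249.7, and 163 and 85.5 (log2 fold change 1.35, FDR = 0.0652 in *Ikzf3+/N159S*). *Il2ra* had a log2 fold change of −0.88 (FDR = 0.0585) in *Ikzf3N159S/N159S*, where *Itgae* had 0.16. Effector and memory T cell markers without *Itgb1* (*Cd44*, *S100a4*, *S100a6*, *Ccl5*, *Cxcr3*, *Il2rb*, *Cxcr6*) summed to 63.4 and 61.2, 71.2 and 87.2, and 28.8 and 38.5 CPM in the same order. Of these 7, *Cxcr3* was called higher in *Ikzf3+/N159S* (log2 fold change 2.17, FDR = 0.0169) and *Il2rb* lower in *Ikzf3N159S/N159S* (−1.53, FDR = 0.000436). The normalized counts of *Cxcr3* were 12.9 and 19.1 in wild-type, 86.6 and 60.7 in heterozygous and 11.3 and 13.2 in homozygous cells. B cell markers (among them *Cd79a*, *Ms4a1* and *Cd74*) summed to 163 and 249, 435 and 709, and 169 and 112 CPM, and 5 of 8 were called higher in *Ikzf3+/N159S* and 2 lower in *Ikzf3N159S/N159S*. Against the midpoint, 3 of 4 regulatory T cell, 4 of 8 memory (with *Itgb1*) and 8 of 8 B cell markers were called higher in *Ikzf3+/N159S*. The share of all genes called there was 1.03%. In *Ikzf3N159S/N159S* against *Ikzf3+/N159S*, 2, 5 and 8 markers of these lists were called lower, beside 1.66% of all genes. CD8 T cell markers (*Cd8a*, *Cd8b1*) were lowest in homozygous cells, with 21.9 and 17.8, 17.1 and 13.4, and 4.36 and 3.08 CPM. *Cd8b1* made up most of this sum. *Cd8a* had normalized counts of 27.0 and 69.5 in wild-type, 69.8 and 69.4 in heterozygous and 18.3 and 15.4 in homozygous cells. Both genes were called lower in *Ikzf3N159S/N159S* against *Ikzf3+/N159S* (FDR = 0.0362 for *Cd8a* and 0.0102 for *Cd8b1*, edgeR's quasi-likelihood test). None of the defining markers of these 4 lists was at 0, and their part in the differences of *Itgae* and of the other subunits was not tested.

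**Figure D3:**
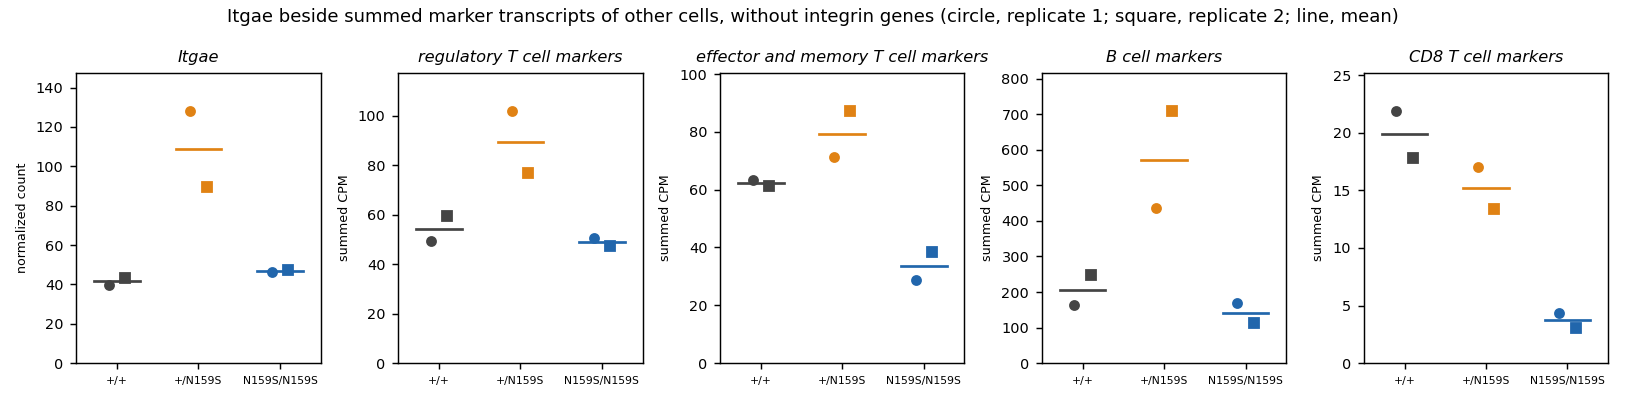
Normalized counts of *Itgae* and summed CPM of 4 marker lists (vertical axes, from 0) in the 6 libraries, with circles for replicate 1, squares for replicate 2 and lines for means. *Itgae* and the sums of regulatory T cell, memory and B cell markers are each highest in the *Ikzf3+/N159S* libraries. The CD8 T cell marker sum is lowest in *Ikzf3N159S/N159S* (4.36 and 3.08 CPM).

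The LFA-1 chains lay slightly lower in both mutant genotypes, by amounts that did not pass the test. *Itgal* (chromosome 7, 127296260 to 127335138, plus strand), the α chain, had normalized counts of 8889 and 9826 in wild-type, 8418 and 7598 in heterozygous and 7762 and 7301 in homozygous cells. Its log2 fold changes were −0.31 (SE 0.10, unadjusted p = 0.0104, FDR = 0.118) in *Ikzf3N159S/N159S* and −0.22 (SE 0.10, FDR = 0.304) in *Ikzf3+/N159S*. *Itgb2* (chromosome 10, 77530252 to 77565708, plus strand), the β chain, had 9133 and 9349, 8080.2 and 7534, and 8094 and 7304. Its log2 fold changes were −0.26 (SE 0.098, unadjusted p = 0.0211, FDR = 0.176) and −0.24 (SE 0.098, unadjusted p = 0.0303, FDR = 0.249). For both chains every mutant library was under the wild-type pair. Of all genes tested, 48.3% had no overlap between *Ikzf3N159S/N159S* and *Ikzf3+/+* and 47.1% none between *Ikzf3+/N159S* and *Ikzf3+/+*, beside 7 and 6 of the 10 subunits. Between the mutant genotypes 41.1% of all genes and 3 of the 10 subunits had no overlap. Among 11 alternative analyses, both chains were called in the one with a covariate separating the library with more detected genes in each genotype from the one with fewer (FDR = 0.00326 for *Itgal* and 0.0123 for *Itgb2* in *Ikzf3N159S/N159S*, edgeR's quasi-likelihood test). The ratio of *Itgal* to *Itgb2* in RPKM was 0.453 and 0.489 in wild-type, 0.485 and 0.469 in heterozygous and 0.446 and 0.465 in homozygous cells. Both mutant genotypes overlapped wild type, and the homozygous pair lay just under the heterozygous pair.

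*Itgb1* (chromosome 8, 128685654 to 128733200, plus strand), the shared β1 chain, was above *Ikzf3+/+* in all 4 mutant libraries. Its normalized counts were 849.8 and 801 in wild-type, 1163 and 1135 in heterozygous and 908 and 1089 in homozygous cells. The log2 fold change was 0.48 (SE 0.11, 95% interval 0.23 to 0.73, FDR = 0.0607) in *Ikzf3+/N159S* and 0.27 (SE 0.11, FDR = 0.224) in *Ikzf3N159S/N159S*. The first of these lay close to the threshold and was called in 6 of 11 alternative analyses, whose FDRs ran from 0.00111 to 0.0934. β1 is itself a marker of memory T cells, and the sum of the effector and memory markers given above was also highest in *Ikzf3+/N159S*. With *Itgb1*, 7 of the 8 markers were above *Ikzf3+/+* there and 1 below, and 1 was called higher. In *Ikzf3N159S/N159S*, where *Itgb1* was above *Ikzf3+/+*, the sum of the other markers was below it. The part of such cells in the *Itgb1* difference was not tested.

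The ratio of the α6 to the β1 transcript was lower in the mutant libraries. In RPKM the *Itga6* to *Itgb1* ratio was 4.05 and 4.88 in wild-type, 2.23 and 2.02 in heterozygous and 2.53 and 1.95 in homozygous cells. Both mutant genotypes lay below *Ikzf3+/+* and overlapped each other. The *Itga4* to *Itgb1* ratio was 4.38 and 5.27, 3.25 and 2.76, and 4.39 and 3.62 in the same order, so *Ikzf3+/N159S* lay below the others, and *Ikzf3N159S/N159S* overlapped *Ikzf3+/+*. The ratios are descriptions of the libraries and were not tested.

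**Figure D4:**
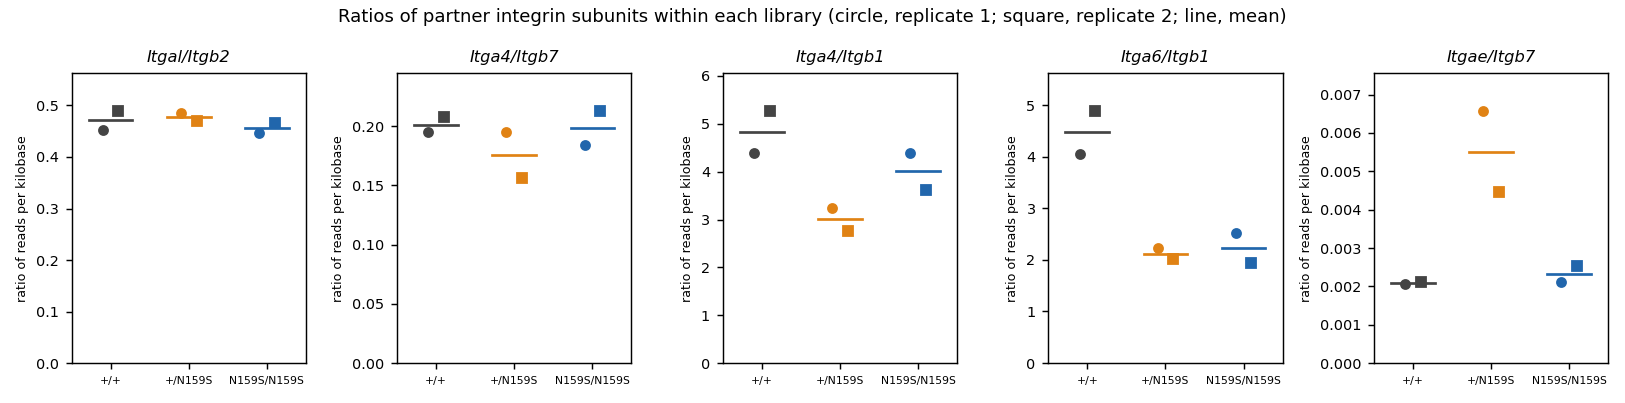
Ratios of the RPKM of partner subunits (vertical axes, from 0) in the 6 libraries, with circles for replicate 1, squares for replicate 2 and lines for means. The *Itga6* to *Itgb1* ratio is 4.05 and 4.88 in *Ikzf3+/+* and between 1.95 and 2.53 in the mutant libraries, while the *Itgal* to *Itgb2* ratio lies between 0.446 and 0.489.

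The α4 and β7 chains did not pass the test in either mutant genotype. *Itga4* (chromosome 2, 79255426 to 79333123, plus strand) had normalized counts of 9533 and 10797 in wild-type, 9677 and 8007 in heterozygous and 10211 and 10101 in homozygous cells. Its log2 fold change was −0.0015 (95% interval −0.25 to 0.25, FDR = 0.996) in *Ikzf3N159S/N159S* and −0.20 (95% interval −0.45 to 0.050, FDR = 0.422) in *Ikzf3+/N159S*. *Cerkl* overlaps it on the opposite strand, with 27 to 58 reads a library. *Itgb7* (chromosome 15, 102215995 to 102231944, minus strand), the most abundant of the 10, had 13418 and 14292, 13601 and 14039, and 15246 and 13034. Its log2 fold changes were 0.029 (95% interval −0.21 to 0.27, FDR = 0.935) and −0.0038 (95% interval −0.24 to 0.23, FDR = 0.992). For *Itgb7* the genotypes overlapped in every comparison, and the intervals leave room for differences of up to 0.27 on the log2 scale. The *Itga4* to *Itgb7* ratio in RPKM was 0.195 and 0.208, 0.195 and 0.157, and 0.184 and 0.213, without separation of the genotypes. The *Itgae* to *Itgb7* ratio, in contrast, was 0.00207 and 0.00211 in wild-type, 0.00657 and 0.00446 in heterozygous and 0.00211 and 0.00252 in homozygous cells, so β7 transcripts far outnumbered their αE partner in every library.

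The αv integrin chains were not called in any comparison. *Itgav* (chromosome 2, 83724397 to 83806916, plus strand) had normalized counts of 521 and 420.0 in wild-type, 504 and 581 in heterozygous and 461 and 657 in homozygous cells. The genotypes overlapped, and the log2 fold changes of 0.25 (SE 0.17, FDR = 0.517) in *Ikzf3N159S/N159S* and 0.21 (SE 0.17, FDR = 0.587) in *Ikzf3+/N159S* had 95% intervals that included 0. *Itgb3* (chromosome 11, 104608000 to 104670476, plus strand) had 3541 and 3297, 3072 and 3791, and 3076 and 3270.1, with log2 fold changes of −0.11 (SE 0.11, FDR = 0.685) and 0.0052 (SE 0.11, FDR = 0.989). β3 is also the β chain of the platelet fibrinogen receptor. Platelet markers without integrin genes (*Pf4*, *Ppbp*, *Gp9*, *Gp1ba*, *Gp1bb*) summed to at most 11.1 CPM in any library. *Gp1ba*, with 102 to 173 reads, made up nearly all of the sum, *Ppbp* and *Gp1bb* were at 0 in every library, and *Pf4* and *Gp9* had at most 2 reads in any. *Itgb5* (chromosome 16, 33829665 to 33949338, plus strand) was close to the limit of detection, with 0 and 8 reads in wild-type, 17 and 11 in heterozygous and 12 and 14 in homozygous cells. It passed the filter through the mutant libraries. A count of 0 in *Ikzf3+/+* replicate 1 allows up to 3 reads, or 0.256 CPM, for counting error only. Its log2 fold changes of 1.46 (SE 0.86, FDR = 0.407) and 1.49 (SE 0.85, FDR = 0.412) had intervals that included 0.

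The other 16 integrin subunits of the genome were read in the same way, and 9 of them passed the filter. *Itga5*, the α5 chain that pairs with β1 in the fibronectin receptor VLA-5, was called higher in both mutant genotypes, and the other 8 were not called in either. Beside 5.26% and 1.75% of all genes called in *Ikzf3N159S/N159S* and *Ikzf3+/N159S*, 1 of 9 is too few to set this list apart. The values of *Itga5* follow. *Itga5* had normalized counts of 114 and 131 in wild-type, 219 and 249 in heterozygous and 350.2 and 375 in homozygous cells. The 3 genotypes did not overlap and followed the number of mutant alleles. The log2 fold change was 1.55 (SE 0.16, FDR = 0.000241) in *Ikzf3N159S/N159S*, or 2.93-fold, and 0.92 (SE 0.17, FDR = 0.0213) in *Ikzf3+/N159S*, or 1.89-fold. The difference between the mutant genotypes was at FDR = 0.0530 (edgeR's quasi-likelihood test), and the difference from the midpoint was 0.14 (FDR = 0.723). Whether *Itga5* differed between the mutants depended on the analysis. It was called with the size factors of DESeq2, without the filter, by the likelihood ratio and exact tests and with the covariate for genes detected. The call in *Ikzf3+/N159S* was lost without *Ikzf3+/+* replicate 1 (FDR = 0.120), *Ikzf3+/+* replicate 2 (FDR = 0.0981) or *Ikzf3+/N159S* replicate 2 (FDR = 0.0720). *Mir6963* overlaps *Itga5* on the same strand. Of *Itga4*, *Itga5*, *Itga6* and *Itgav*, which can pair with β1, *Itga5* was thus higher and *Itga6* lower in both mutant genotypes. *Itga4* and *Itgav* were called in neither. Further partners of β1 are among the 8 subunits not called in the main fit. The likelihood ratio and exact tests called 2 of the 9 in *Ikzf3N159S/N159S*, and the covariate for genes detected gave 2 in each mutant genotype.

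Promoter sequences of 5 of the 10 subunits (*Itga4*, *Itgav*, *Itgb1*, *Itgb5*, *Itgb7*) and of *Itga5* were read from RefSeq, as windows of 250 bases before to 50 after the start (GRCm38.p6). Ikaros family proteins are known to bind DNA with GGGAA at its core, and both strands were searched for these letters (GGGAA or TTCCC). They occurred in the windows of *Itga4*, *Itgav* and *Itga5*, once in each, and in none of the other 3. Of all 32851 promoter windows, 62.7% held them, so the letters do not set these genes apart. The stretches around the matches are shown because *Itga5* was called and *Itga4* and *Itgav* were not, with the matched letters in capitals and each read 5′ to 3′ on the strand of the gene.
Itga5, chr15:103366792-103366869, minus strand: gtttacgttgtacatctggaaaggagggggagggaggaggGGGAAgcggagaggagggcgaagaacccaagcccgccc
Itga4, chr2:79255176-79255241, plus strand: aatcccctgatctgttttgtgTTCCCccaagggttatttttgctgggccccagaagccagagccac
Itgav, chr2:83724148-83724232, plus strand: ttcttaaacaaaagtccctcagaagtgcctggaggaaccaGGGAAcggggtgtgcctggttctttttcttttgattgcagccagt
A match is a description of the letters only, and no binding was measured.

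The genes that switch integrins on were examined next, since surface integrins of resting T cells need them to bind. Of 23 genes for inside-out activation and tail binding, such as talin (*Tln1*), kindlin-3 (*Fermt3*) and the Rap1 GTPases, 19 passed the filter and 0 were called in either mutant genotype by edgeR's quasi-likelihood test. Of all genes tested, that test called 5.26% in *Ikzf3N159S/N159S* and 1.75% in *Ikzf3+/N159S*. DESeq2 called 1 of the 19, *Pxn*, in *Ikzf3N159S/N159S* and 0 in *Ikzf3+/N159S*. In the main fit *Pxn* had a log2 fold change of 0.45 (FDR = 0.0801) in *Ikzf3N159S/N159S*. It was also called there by the likelihood ratio and exact tests, without the filter and with only the genotypes compared, so its call depended on the analysis. With the covariate for genes detected, 2 of the 19 genes, *Pxn* among them, were called in *Ikzf3N159S/N159S* and 1 in *Ikzf3+/N159S*. Without adjustment, 1 and 2 of the 19 had a p under 0.05, beside 18.3% and 16.3% of all genes tested. Their median log2 fold changes were −0.082 in *Ikzf3N159S/N159S* and −0.11 in *Ikzf3+/N159S*, with 13 and 15 of 19 below *Ikzf3+/+*, beside 49.9% and 48.1% of all genes. Of 7 negative regulators of integrin activation, such as the Rap1 inactivator *Sipa1*, 0 were called in either genotype by edgeR's main fit or DESeq2. In that main fit 0 and 1 had an unadjusted p under 0.05. With the covariate for genes detected, 1 of the 7 was called in each mutant genotype. The medians of the 7 in the main fit were −0.050 and −0.073.

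Among 12 ligand and counter-receptor genes, 6 passed the filter. Of these 1 was called in *Ikzf3N159S/N159S* and 0 in *Ikzf3+/N159S*, beside 5.26% and 1.75% of all genes tested, too few to set the list apart. *Icam1*, the main ligand of LFA-1, was higher in *Ikzf3N159S/N159S*, with normalized counts of 432 and 505 in wild-type, 573 and 624 in heterozygous and 749 and 861 in homozygous cells. The genotypes did not overlap. Its log2 fold change was 0.77 (SE 0.13, FDR = 0.00464) in *Ikzf3N159S/N159S* and 0.35 (SE 0.13, FDR = 0.210) in *Ikzf3+/N159S*. Myeloid and B cells also express ICAM-1. Myeloid markers without integrin genes (*Lyz2*, *Csf1r*, *Cst3*, *S100a8*, *S100a9*, *Cd68*) summed to 63.0 to 65.8 CPM in *Ikzf3+/+* and 64.4 to 71.2 in *Ikzf3N159S/N159S*. The sum was mostly *Cst3* and *Cd68*, whose log2 fold changes were 0.15 (FDR = 0.577) and −0.74 (FDR = 0.0958). The less abundant *Lyz2* was at 0.95 (FDR = 0.244), *S100a8* at 1.09 (FDR = 0.151), *S100a9* at 1.06 (FDR = 0.156) and *Csf1r* at 0.63 (FDR = 0.491). With *Itgam*, 5 of the 7 myeloid markers tested were above *Ikzf3+/+*, with a median of 0.63, 0 were called and 4 had an unadjusted p under 0.05 (edgeR's quasi-likelihood test). Of the 8 B cell markers 2 were called lower and none higher in *Ikzf3N159S/N159S*. The part of these cells in the *Icam1* difference was not tested.

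Among 9 genes for tetraspanins and other lateral partners, 8 passed the filter. Of these 1 was called in *Ikzf3N159S/N159S* and 0 in *Ikzf3+/N159S*, beside 5.26% and 1.75% of all genes tested, too few to set the list apart. *Cd9*, a tetraspanin that binds β1 integrins, had 896 and 669.7, 1003 and 981, and 1529.5 and 1394. Its log2 fold change was 0.91 (SE 0.13, FDR = 0.00244) in *Ikzf3N159S/N159S* and 0.35 (SE 0.13, FDR = 0.224) in *Ikzf3+/N159S*. *Icam1* and *Cd9* were called in *Ikzf3N159S/N159S* without any one of the 6 libraries. Their direct comparison between the mutant genotypes had FDRs of 0.131 for *Icam1* and 0.0560 for *Cd9* (edgeR's quasi-likelihood test). Among the 11 alternative analyses of this comparison, *Icam1* was called in 1 and *Cd9* in 7, with FDRs from 0.000578 to 0.0662 for *Cd9*, so whether *Cd9* differed between the mutants depended on the analysis.

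**Figure D5:**
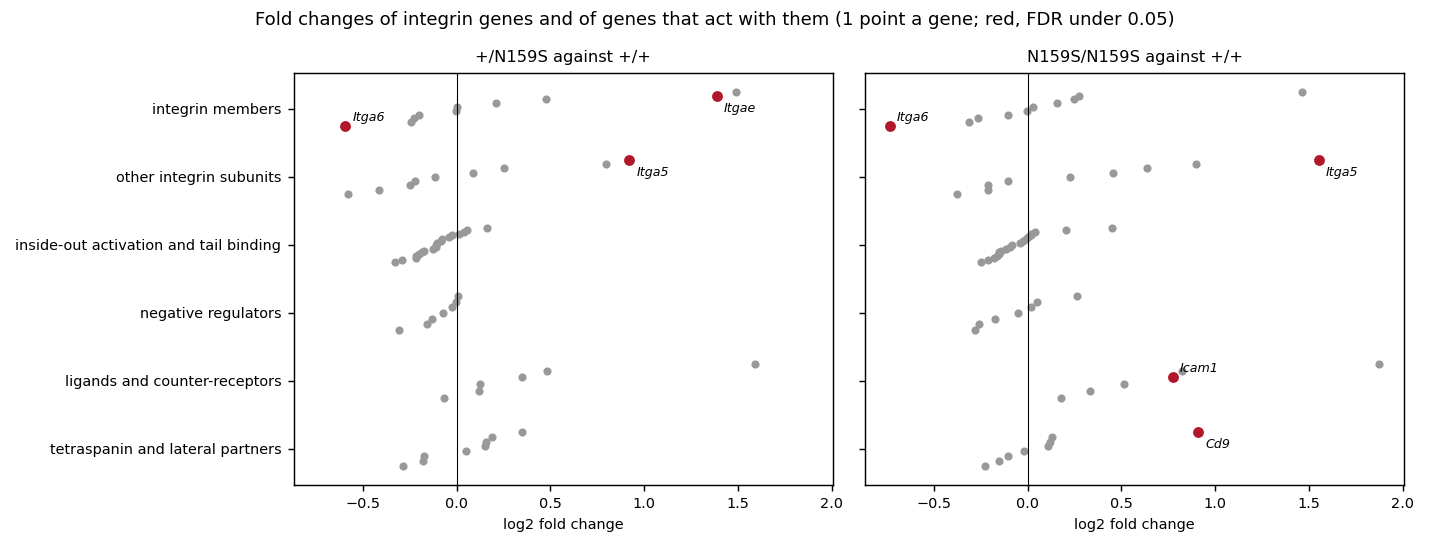
Log2 fold changes (horizontal axes, the same in both panels) of the tested genes of 6 lists, 1 point a gene, for *Ikzf3+/N159S* and *Ikzf3N159S/N159S* against *Ikzf3+/+*. Red points have an FDR under 0.05 and are named, and the 19 activation genes and 7 negative regulators hold none of them.

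The genes whose log2 CPM followed the called subunits most closely over the 6 libraries were read as a description. For *Itga6* they were *Trat1*, a T cell receptor adaptor, with a Pearson r of 0.997, *Akap8*, an anchoring protein for protein kinase A, with 0.996 and *Jarid2*, a cofactor of Polycomb complex PRC2, with 0.995, and 115 of 8720 genes compared had an r over 0.95. For *Itgae* they included *Nprl3* with 0.984 and *Eme2* with 0.971, and 17 of 8721 genes had an r over 0.95. The 6 libraries share genotype and depth differences, so these values describe likeness of pattern alone.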

How the data were processed

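RNA-seq counts of 6 splenic T cell libraries were analysed, 2 per *Ikzf3* genotype, and groups and replicate numbers were taken from the labels. The libraries were made from poly(A)-selected RNA with a kit that does not mark strand. The authors trimmed the reads with Trimmomatic 0.38.1, mapped them to mm10 with HISAT2 2.2.1, counted reads on refGene genes with HTSeq 2.0.2 and deposited these counts without normalization (tool versions per the methods and the submitters' processing notes). The 5 rows that name no gene, 42.3 to 49.3% of entries, were left out. In R 4.3.3, edgeR 4.0.16 was used with its filterByExpr function (genotype as group, at least 10 counts and 15 in total), TMM scaling and a quasi-likelihood fit with 1 coefficient per genotype. Contrasts were each mutant genotype against *Ikzf3+/+*, the mutants against each other, and *Ikzf3+/N159S* against the midpoint of the others on the log2 scale, with Benjamini-Hochberg adjustment over 12117 genes. The test was also run on simulated counts with the same spread in every gene (dispersion 0.05). Changed genes had heterozygous values at the midpoint of the others on the log2 scale. That setting differs from these data, and no result here rests on it. RPKM used the union of exons of GENCODE M21 (GRCm38, the same assembly as mm10), and log2 CPM used a prior count of 2. Positions are from that annotation.

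The subunits and lists were chosen with earlier results of these data known. All 10 subunits were named. Genes of the other lists were named where they passed an FDR of 0.05 in a mutant genotype against *Ikzf3+/+*, with up to 5 a list, as were the 3 genes most like each called subunit among those whose log2 CPM averaged 3 or more. *Pxn* was named after its values were seen. Marker genes were named where a sum used them, for B cells only in part, and *Xist*, *Ddx3y*, *Haspin*, *Cerkl* and *Mir6963* as checks. The alternatives changed the tool (DESeq2 1.42.0), the scaling (size factors of DESeq2), the filter (none, or 10 reads in all libraries), the test (likelihood ratio, earlier quasi-likelihood or exact test of edgeR), the model (a replicate block, a covariate for genes detected, or only the genotypes compared) and the input (without X and Y genes, or without 1 library in turn). Some genes that these rules would name are not reported here.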

Additional observations from a re-analysis of the deposited data

How the results depend on the processing

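The subunits called in *Ikzf3N159S/N159S* numbered 1 in every alternative and with any 1 library left out (1 to 1), apart from a genes detected term (*Ikzf3+/+* replicate 1 and replicate 2 of both mutants, which had more genes detected, against the rest), which called 4. In *Ikzf3+/N159S* that term called 5 against 2, and leaving out 1 library gave 0 to 3. Between the mutants 1 subunit was called, and 0 with DESeq2, the earlier quasi-likelihood test, a fit of only the genotypes compared and the replicate block, and 0 to 1 with 1 library left out. The midpoint test called 1, with the genes detected term 3, and 0 to 1 with 1 library left out. Of all genes, 637 were called in *Ikzf3N159S/N159S*, 1042 by the likelihood ratio test, 992 by the exact test, 1756 with the genes detected term and 221 to 751 with 1 library left out. For *Ikzf3+/N159S* these were 212, 640, 602 and 1422, with 542 without the filter and 68 to 250 with 1 library left out. The causes were not tested. Library sizes of 11696461 to 17317260 reads limit *Itgae* and *Itgb5* most, with 31 to 145 and 0 to 17 reads.

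Whether the replicate numbers pair the libraries could not be decided with 2 libraries a genotype. Deviations of replicate 1 from the group means correlated at −0.17 (*Ikzf3+/+* and *Ikzf3+/N159S*), −0.22 (*Ikzf3+/+* and *Ikzf3N159S/N159S*) and 0.24 (the mutants). With the replicate block 514 and 170 genes were called in *Ikzf3N159S/N159S* and *Ikzf3+/N159S*, with 1 and 2 subunits, 0 between the mutants and 1 against the midpoint.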
